A study of Mus musculus with 6 samples.

Results

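Genes of epithelial junctions, keratins and epithelial regulators were followed in gene-level read counts of polyadenylated RNA from cultured mouse embryonic stem cells, which are pluripotent. The 43 genes were chosen by name among the 23999 gene symbols of the table, with no threshold on their values, and all 43 were found. They comprise 9 claudin genes, 6 other tight junction genes, Epcam, 8 desmosome genes, 3 catenin genes, 3 polarity genes, 3 regulator genes, the gene of the protease matriptase with those of its inhibitors (3 in all) and 7 keratin genes. Cells given 4-hydroxytamoxifen, written 4OHT, for 6 days (n = 3) were compared with cells given only its vehicle, ethanol, over the same 6 days (n = 3). Per the labels, both groups have the -5 element floxed and hold exogenous mNanogV5, by its name a mouse Nanog with a V5 tag, so the vehicle cells have it too. 4OHT is commonly used to activate Cre in cells with an inducible form of it, but the labels used here name no Cre, promoter or clone. Nor do they say that the replicates are separate cultures, so p-values measure only the spread between these samples, which may be technical.

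The study concerned an enhancer of Nanog, by its title. That gene stood at 177, 172 and 194 CPM in 4OHT cells and at 631, 660 and 641 CPM in vehicle cells, a count to which reads of the exogenous Nanog can contribute. CPM are read counts scaled to a common library size. The libraries held 515388 to 55194644 counts in 4OHT cells and 20030423 to 52250671 in vehicle cells. The shallowest library was 4OHT replicate 2, where 1 read was worth 1.91 CPM, against 0.0183 to 0.0498 CPM in the other 5 libraries. The 8 stem cell markers examined summed to 5934 to 6284 CPM in 4OHT and 6176 to 6375 CPM in vehicle libraries, and all 8 were detected in every library. Of these, Pou5f1 passed as lower (12.5%) and Sox2 as higher (12.5%) in 4OHT cells, against 10.5% and 11.9% of all genes tested. However, Pou5f1 did not pass without vehicle replicate 2 (edgeR adjusted p = 0.0962). Sox2 did not pass without 4OHT replicate 3 (0.0748), vehicle replicate 2 (0.173) or vehicle replicate 3 (0.157), nor in DESeq2 (0.0522).

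Epithelial cells are held together by several kinds of junction. Tight junctions, built of claudins and occludin on scaffold proteins, seal the space between cells, adherens junctions join E-cadherin to actin through catenins, and desmosomes join cells to the keratin filaments inside them. Keratins are obligate partners, a type I with a type II chain. GRHL2 is a transcription factor that maintains epithelial genes, ESRP proteins set epithelial splicing, and matriptase is a membrane serine protease of epithelia that is held in check by Kunitz-type inhibitors. Mouse embryonic stem cells grow as compact colonies joined by E-cadherin and share part of this gene set.

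Most of the genes fell after 4OHT. Of the 42 that could be tested, 24 were lower in 4OHT cells than in vehicle cells, 1 was higher and 17 did not pass (edgeR's quasi-likelihood test, Benjamini-Hochberg adjusted p under 0.05). Among all 14458 genes tested, 10.5% were lower and 11.9% higher, against 57.1% lower among the 42. The median log2 fold change of 4OHT over vehicle was -0.43 over the 42 genes and -0.0026 over all genes tested. In 25 of the 42 genes all 3 4OHT libraries lay below all 3 vehicle libraries, which held for 16.5% of all genes tested. At least 2-fold falls that passed were seen in 8 of the 42, against 1.51% of all genes tested. The falls were spread over claudins, 2 other tight junction genes, Epcam, desmosome genes, Crb3, regulators, the protease with its inhibitors and keratins, while the catenins and the polarity genes Pard3 and Pard6b did not pass. These are bulk samples, in which fewer cells of a type and less RNA per cell cannot be told apart. DESeq2 called 16 of the 42 genes, all lower, where it called 2.83% of all genes tested lower and 6.76% in either direction. Without the shallow library 23 of the 42 were lower in edgeR, against 9.72% of all genes tested, while blocking on replicate number gave 26 lower, against 13.5%. Pkp1 was too low to be tested, with 0.11, 0 and 0.196 CPM in 4OHT libraries and 0.283, 0.398 and 0.419 CPM in vehicle libraries.

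**Figure D1:**
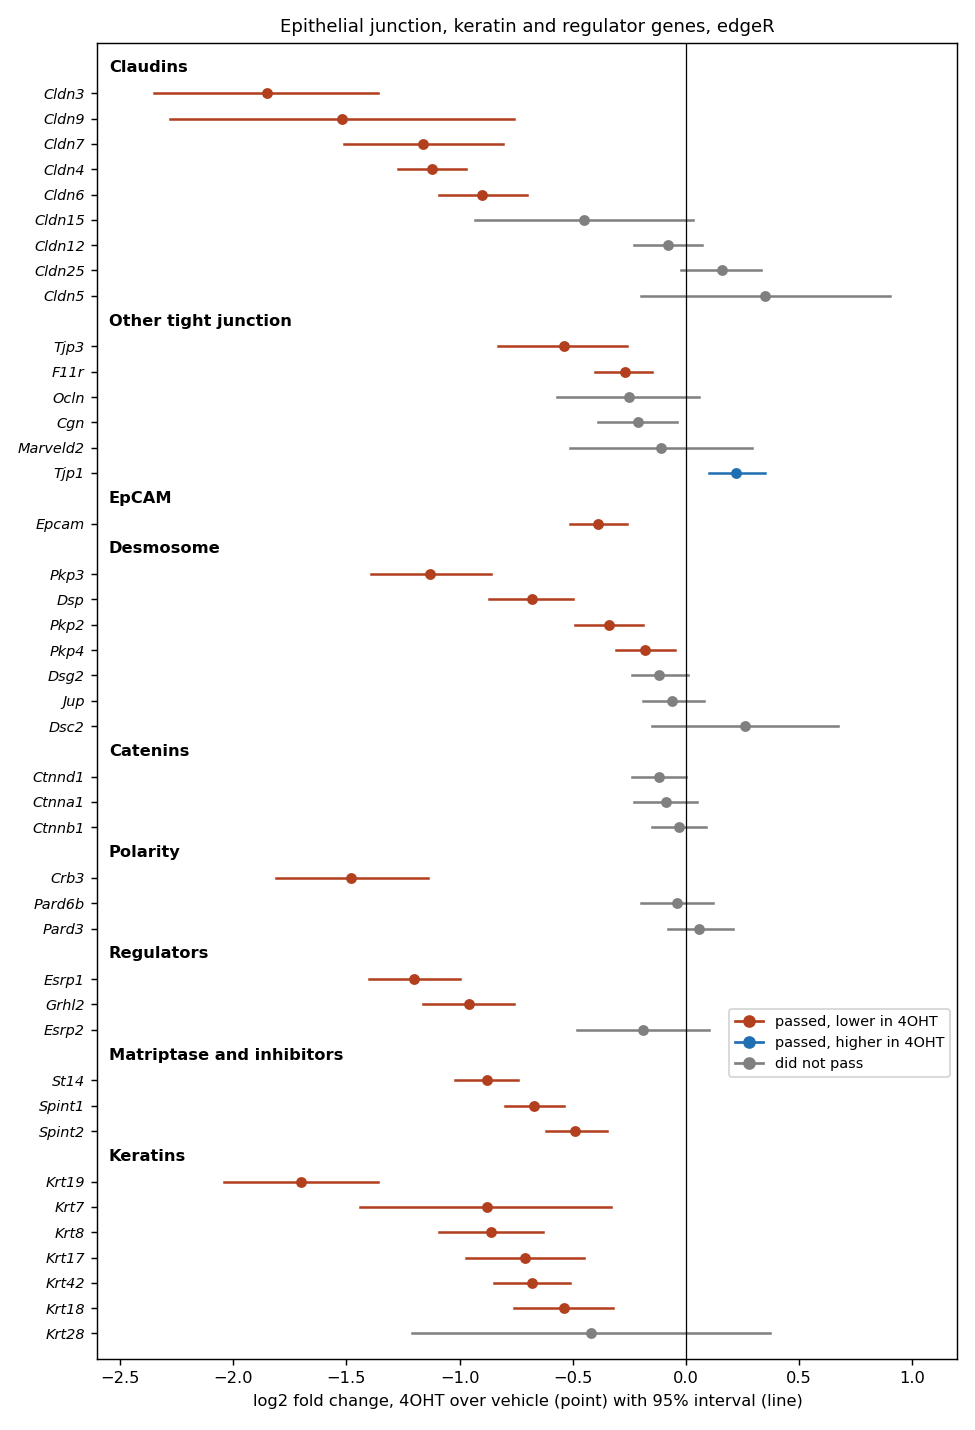
Log2 fold change of 4OHT over vehicle (horizontal axis) for the 42 tested genes, grouped by role, with points for the edgeR estimate and lines for its 95% interval. Red marks the 24 genes that passed and were lower in 4OHT cells, blue the 1 that was higher (Tjp1) and grey the 17 that did not pass.

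Summed over each role group, the levels show where the falls lie. The 9 claudins summed to 119, 128 and 138 CPM in 4OHT libraries and to 178, 190 and 184 CPM in vehicle libraries. The 7 keratins summed to 36.7, 47.7 and 36.0 CPM in 4OHT libraries and to 63.4, 60.5 and 64.2 CPM in vehicle libraries. For the 3 regulators the sums were 35.9, 30.5 and 31.0 CPM in 4OHT libraries and 64.1, 62.2 and 64.2 CPM in vehicle libraries. In these role groups the 4OHT sums all lay below the vehicle sums. Matriptase and its inhibitors also stood apart, at 254 to 273 CPM in 4OHT libraries and 396 to 422 CPM in vehicle libraries. The 6 other tight junction genes overlapped between groups, at 347 to 403 CPM in 4OHT and 356 to 364 CPM in vehicle libraries, as did the 3 polarity genes, at 91.4 to 93.6 and 90.5 to 95 CPM. The 8 desmosome genes summed to 507 to 515 CPM in 4OHT and 558 to 582 CPM in vehicle libraries, and the 3 catenins to 2331 to 2405 and 2464 to 2504 CPM, in both cases without overlap. These sums follow the most abundant gene of each group and were not tested.

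**Figure D2:**
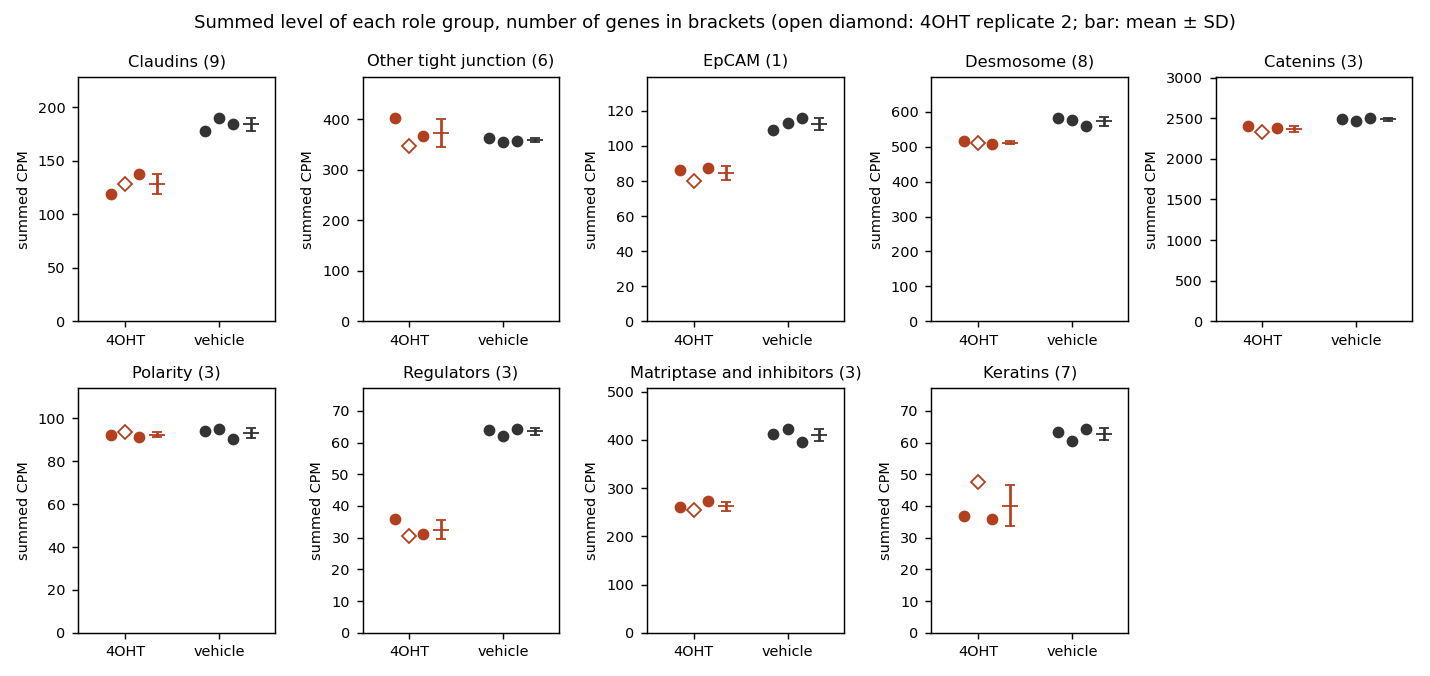
Summed CPM (vertical axis, from 0) of each role group in single libraries, 4OHT left and vehicle right, with the mean and SD of 3 libraries beside the points. The other tight junction and polarity genes overlap between groups, and the remaining role groups do not, with the widest gaps in the regulators, the protease with its inhibitors, the claudins and the keratins.

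The promoters of these genes were searched because many of the genes moved in the same direction. RefSeq windows of 250 bases before the start, on GRCm38.p6, were held for 29 of the 43 genes, and letters were searched on both strands. The motif CACCTG is the E-box to which repressors of the SNAIL and ZEB families are known to bind. It was in a window of 12 of the 16 genes with a window that fell (75%), of 3 of the 12 that did not pass (25%) and of 19.3% of the 10643 tested genes with a window. Genes can have several windows, with a mean of 1.25 in the falling genes and 1.27 in all tested genes, and the median GC content was 60.6% and 60.0%. The 12 genes were Cldn4, Cldn6, Cldn7, F11r, Tjp3, Epcam, Pkp4, Crb3, Spint2, Krt7, Krt8 and Krt18, and the 4 without the letters were Cldn3, Dsp, Spint1 and Krt42. Of the 12, Cldn7, Tjp3, Pkp4, Krt7 and Krt18 did not pass in DESeq2, while all 4 without the letters did. The falling genes Cldn9, Pkp2, Pkp3, Esrp1, Grhl2, St14, Krt17 and Krt19 had no window and could not be searched. The windows printed below were all taken from the 12. The GC-box letters GGGCGG were in 75% of the falling genes, 83.3% of those that did not pass and 63.9% of tested genes. The letters AACCNGTT, a form of the GRHL motif, were in 0 of the 16 falling genes, 2 of the 12 that did not pass (Cgn and Cldn5) and 1.91% of tested genes. The motifs were picked with the falls known, no test was made, and a match is not evidence of binding. Below are windows of 6 falling genes with a single window each, written 5′ to 3′ on the strand of the gene with CACCTG or its reverse complement in capitals, from genes of a tight junction, of cell adhesion, of a protease inhibitor and of the keratin pair of simple epithelia. The counts were made on mm9, so these coordinates belong to the sequences alone.
Cldn4, chr5:134946935-134947184, minus strand: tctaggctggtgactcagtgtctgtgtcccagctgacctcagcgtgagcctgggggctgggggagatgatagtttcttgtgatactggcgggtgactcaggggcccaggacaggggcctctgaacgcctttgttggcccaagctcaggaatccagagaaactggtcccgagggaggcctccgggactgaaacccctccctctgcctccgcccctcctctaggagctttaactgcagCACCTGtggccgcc
Cldn6, chr17:23679115-23679364, plus strand: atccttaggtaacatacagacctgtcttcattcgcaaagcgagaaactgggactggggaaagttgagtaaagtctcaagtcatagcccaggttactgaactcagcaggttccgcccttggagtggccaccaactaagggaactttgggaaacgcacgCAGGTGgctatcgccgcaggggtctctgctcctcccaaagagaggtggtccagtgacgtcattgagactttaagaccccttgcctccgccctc
Epcam, chr17:87635729-87635978, plus strand: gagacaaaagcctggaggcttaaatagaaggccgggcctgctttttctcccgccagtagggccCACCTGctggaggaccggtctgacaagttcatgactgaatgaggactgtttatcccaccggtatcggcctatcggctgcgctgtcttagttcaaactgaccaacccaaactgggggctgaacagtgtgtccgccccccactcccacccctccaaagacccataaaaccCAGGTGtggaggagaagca
Spint2, chr7:29281978-29282227, minus strand: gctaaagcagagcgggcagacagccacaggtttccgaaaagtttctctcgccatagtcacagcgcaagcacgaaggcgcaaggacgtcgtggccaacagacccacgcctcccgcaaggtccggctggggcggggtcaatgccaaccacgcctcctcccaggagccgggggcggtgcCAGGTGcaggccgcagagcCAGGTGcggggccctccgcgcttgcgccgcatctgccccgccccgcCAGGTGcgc
Krt8, chr15:102004343-102004592, minus strand: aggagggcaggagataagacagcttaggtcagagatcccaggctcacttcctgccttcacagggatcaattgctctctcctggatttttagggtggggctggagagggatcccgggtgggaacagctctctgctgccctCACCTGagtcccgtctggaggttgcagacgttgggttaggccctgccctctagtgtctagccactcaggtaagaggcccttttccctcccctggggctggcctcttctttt
Krt18, chr15:102027966-102028215, plus strand: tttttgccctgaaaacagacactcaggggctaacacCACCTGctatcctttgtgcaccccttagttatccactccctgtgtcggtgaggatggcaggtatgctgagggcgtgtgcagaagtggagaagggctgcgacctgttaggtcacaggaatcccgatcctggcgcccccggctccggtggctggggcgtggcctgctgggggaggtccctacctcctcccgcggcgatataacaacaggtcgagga

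Among the claudins, the membrane proteins that seal tight junctions, 5 of 9 fell, none rose and 4 did not pass. Cldn4 stood at 33.5, 34.4 and 38.6 CPM in 4OHT cells and at 78.1, 81.6 and 74.8 CPM in vehicle cells. The groups did not overlap, and the shallow library lay between the other 4OHT libraries. The fitted level was 45.9% of vehicle (log2 fold change -1.12 with a 95% interval of -1.27 to -0.97, SE 0.07, edgeR adjusted p = 5.76e-10). Cldn6, a claudin of early embryonic epithelia, stood at 9.23, 13.4 and 10.2 CPM in 4OHT cells and at 17.8, 17.6 and 19.0 CPM in vehicle cells. With no overlap, its log2 fold change was -0.90 (SE 0.09, edgeR adjusted p = 4.82e-07). Cldn3 stood at 0.822, 1.91 and 1.47 CPM in 4OHT cells and at 3.08, 4.98 and 4.19 CPM in vehicle cells. It fell by 1.85 (SE 0.24, edgeR adjusted p = 6.8e-06) with no overlap, and its value in 4OHT replicate 2 rests on 1 read.

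Cldn7 and Cldn9 had no read in 4OHT replicate 2. Cldn7 stood at 1.85, 0 and 2.15 CPM in 4OHT cells and at 3.97, 4.88 and 4.49 CPM in vehicle cells (log2 fold change -1.16, SE 0.17, edgeR adjusted p = 3.03e-05). Cldn9 stood at 0.256, 0 and 0.131 CPM in 4OHT cells and at 0.586, 0.548 and 0.685 CPM in vehicle cells (log2 fold change -1.52, SE 0.36, edgeR adjusted p = 0.0042). Both fell with no overlap, and without the shallow library the edgeR adjusted p was 0.000308 for Cldn7 and 0.00983 for Cldn9. In that library 1 read is worth 1.91 CPM, above every vehicle value of Cldn9, so its 0 says little about Cldn9. Without 4OHT replicate 1 the log2 fold change of Cldn9 was -2.20, a fold 1.6 times further from vehicle. DESeq2 gave Cldn7 an adjusted p of 0.0701 and gave none for Cldn9.

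The other 4 claudins did not pass, and differences between claudins were not tested. The 95% intervals of Cldn12, Cldn25 and Cldn5 do not reach those of the claudins that fell. That of Cldn15 does reach the interval of Cldn6 (-1.09 to -0.70). Cldn12 stood at 42.1, 47.7 and 47.8 CPM in 4OHT cells and at 45.9, 47.0 and 50.1 CPM in vehicle cells, with overlap and a log2 fold change of -0.08 (95% interval -0.23 to 0.07). Cldn25 averaged 30.3 ± 4.19 CPM in 4OHT and 28.7 ± 1.95 CPM in vehicle cells (SD, n = 3 each), with an edgeR adjusted p of 0.196 that became 0.0434 with the replicate number as a block and 0.00606 without 4OHT replicate 1. Cldn5, the claudin of endothelium, and Cldn15, a pore-forming claudin known from intestine, stayed below 2 CPM in all 6 libraries, with log2 fold changes of 0.35 (95% interval -0.20 to 0.90) and -0.45 (-0.93 to 0.03). Among the claudins with an exon length, Cldn4 had the highest mean level per kilobase of exon in both groups. It had 19.5 CPM per kilobase in 4OHT and 43 in vehicle cells. On the same scale Cldn12 had 10.8 in 4OHT and 11.3 in vehicle cells, and Cldn6 had 6.35 and 10.5. No exon length was found for Cldn25, so its place in this ranking is unknown.

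The other tight junction genes split by direction. F11r, which encodes the junctional adhesion molecule JAM-A, stood at 63.2, 61.1 and 64.6 CPM in 4OHT cells and at 75.0, 77.2 and 79.3 CPM in vehicle cells. It fell by 0.27 (SE 0.06, edgeR adjusted p = 0.00236) with no overlap. Tjp3, a scaffold of the zonula occludens family, had 5.54, 0 and 5.71 CPM in 4OHT cells and 8.60, 8.31 and 7.20 CPM in vehicle cells. It fell (log2 fold change -0.54, SE 0.13, edgeR adjusted p = 0.00554), and DESeq2 did not pass it (adjusted p = 0.383). Its relative Tjp1 was the only one of the 42 genes that rose, with 312, 273 and 277 CPM in 4OHT cells and 255, 247 and 247 CPM in vehicle cells. The log2 fold change was 0.22 (SE 0.06, edgeR adjusted p = 0.0121), and the groups did not overlap. This call was lost without 4OHT replicate 1 (edgeR adjusted p = 0.0645), without vehicle replicate 2 (0.0734) and without vehicle replicate 3 (0.0566), and in DESeq2 (0.0554).

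Occludin, tricellulin and cingulin did not pass. Ocln averaged 2.28 ± 1.98 CPM in 4OHT and 4.09 ± 0.236 CPM in vehicle cells, and Marveld2, the tricellulin gene, 1.59 ± 1.41 and 2.40 ± 0.425 CPM, both with no read in 4OHT replicate 2. Their log2 fold changes were -0.25 (95% interval -0.57 to 0.06) and -0.11 (-0.51 to 0.29). Cgn, the cingulin gene, stood at 15.8, 13.4 and 15.5 CPM in 4OHT cells and 18.7, 17.6 and 17.8 CPM in vehicle cells, with an edgeR adjusted p of 0.0713, and of 0.0416 with the replicate block. The gene BC021767 matches 34.6% of the Cgn transcript at 95% identity or more, so reads can be shared between them.

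Epcam, which encodes an adhesion molecule of epithelia and of embryonic stem cells, stood at 86.1, 80.2 and 87.3 CPM in 4OHT cells and at 109, 113 and 116 CPM in vehicle cells. It fell to 76.5% of vehicle in 4OHT cells with no overlap (log2 fold change -0.39, SE 0.06, edgeR adjusted p = 7.63e-05). Per kilobase its mean was 38.5 CPM in 4OHT and 51.4 in vehicle cells, close to that of Cldn4 in vehicle cells.

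In the desmosome, 4 of 7 tested genes fell and none rose. Pkp3, a plakophilin of epithelial desmosomes, stood at 4.90, 5.73 and 3.79 CPM in 4OHT cells and at 9.75, 10.6 and 8.87 CPM in vehicle cells. It fell by 1.13 (SE 0.13, edgeR adjusted p = 1.32e-06) with no overlap. Dsp, the desmoplakin gene whose product ties the plaque to keratins, stood at 16.6, 11.5 and 15 CPM in 4OHT cells and at 27.4, 23.8 and 24.6 CPM in vehicle cells. The log2 fold change was -0.68 (SE 0.09, edgeR adjusted p = 6.91e-06), again with no overlap. Pkp2 stood at 39.2, 53.5 and 37.2 CPM in 4OHT cells and at 48.7, 48.3 and 50.1 CPM in vehicle cells (log2 fold change -0.34, SE 0.07, edgeR adjusted p = 0.0015). The groups overlapped for Pkp2 through the shallow library, which gave the highest value, and DESeq2 did not pass it (adjusted p = 0.139). Pkp4, whose product is also found at adherens junctions, stood at 178, 149 and 161 CPM in 4OHT cells and at 192, 189 and 188 CPM in vehicle cells (log2 fold change -0.18, SE 0.06, edgeR adjusted p = 0.0418), with no overlap. That call was lost without 4OHT replicate 2 (edgeR adjusted p = 0.0753) or 3 (0.161), and without vehicle replicate 1 (0.09), 2 (0.123) or 3 (0.0975), and in DESeq2 (0.18).

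The desmosomal cadherin genes and plakoglobin did not pass. Dsg2 stood at 82.2, 76.4 and 77.5 CPM in 4OHT cells and at 87.7, 84.8 and 86.8 CPM in vehicle cells (log2 fold change -0.12, 95% interval -0.24 to 0.01). Dsc2 lay between 1.26 and 1.91 CPM in all 6 libraries. Jup, the plakoglobin gene, stood at 192, 212 and 210 CPM in 4OHT cells and at 215, 218 and 198 CPM in vehicle cells, with overlap and a log2 fold change of -0.06 (95% interval -0.19 to 0.08). Within the desmosome, the plaque genes Dsp and Pkp3 therefore fell where the cadherin gene Dsg2 and the plaque gene Jup did not pass, and the 95% interval of Dsp (-0.87 to -0.50) does not reach those of Dsg2 and Jup, although the difference between genes was not tested.

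The 3 catenin genes, which link cadherins to actin and of which Ctnnb1 also serves WNT signalling, did not pass. Ctnnb1 stood at 1200, 1195 and 1301 CPM in 4OHT cells and at 1238, 1266 and 1281 CPM in vehicle cells. The groups overlapped, and the 95% interval of the log2 fold change ran from -0.15 to 0.09. Ctnna1 averaged 747 ± 61.9 CPM in 4OHT and 796 ± 29.1 CPM in vehicle cells, with an edgeR adjusted p of 0.359, and of 0.0146 without 4OHT replicate 1. For Ctnnd1 the 4OHT libraries lay at 391 to 395 CPM and the vehicle libraries at 419 to 434 CPM, without overlap (log2 fold change -0.12, edgeR adjusted p = 0.138, and 0.0469 with the replicate block). Another gene model on the same strand, Gm28635, shares 61.2% of the exon bases of Ctnnd1, so its count is uncertain, and Ulk4 on the opposite strand shares 14.6% of those of Ctnnb1.

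Of the polarity genes, Crb3, which encodes an apical Crumbs protein, fell and the others did not pass. Crb3 stood at 1.66, 3.82 and 1.96 CPM in 4OHT cells and at 5.10, 5.48 and 4.49 CPM in vehicle cells. It fell to 36.0% of vehicle (log2 fold change -1.48, SE 0.16, edgeR adjusted p = 8.25e-07), with no overlap and 2 reads behind the value of the shallow library. Pard3 and Pard6b, which encode scaffold proteins of the apical PAR complex, had log2 fold changes of 0.06 (95% interval -0.08 to 0.21) and -0.04 (-0.20 to 0.12). Pard6b averaged 35.1 ± 6.22 CPM in 4OHT and 32.8 ± 1.25 CPM in vehicle cells, and Pard3 54.8 ± 6.53 and 55.3 ± 2.41 CPM.

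Of the regulators Grhl2 and Esrp1 fell and Esrp2 did not pass. Grhl2 stood at 18.8, 7.64 and 15.1 CPM in 4OHT cells and at 34.6, 31.1 and 32.4 CPM in vehicle cells (log2 fold change -0.96, SE 0.10, edgeR adjusted p = 2.86e-07). The lowest value is that of the shallow library and rests on 4 reads, and without that library the adjusted p was 3.56e-05. Esrp1, the splicing factor gene, stood at 10.8, 7.64 and 9.40 CPM in 4OHT cells and at 22.0, 22.4 and 25.5 CPM in vehicle cells. It fell to 43.6% of vehicle (log2 fold change -1.2, 95% interval -1.4 to -1, edgeR adjusted p = 1.33e-08) with no overlap. Its paralogue Esrp2 stood at 6.34, 15.3 and 6.46 CPM in 4OHT cells and at 7.48, 8.66 and 6.28 CPM in vehicle cells, where the high value is that of the shallow library. Esrp2 did not pass (log2 fold change -0.19, 95% interval -0.48 to 0.10), and its interval does not reach that of Esrp1, although the difference was not tested.

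The gene of matriptase and both inhibitor genes fell. St14, the matriptase gene, stood at 49.0, 45.8 and 46.4 CPM in 4OHT cells and at 90.7, 89.9 and 82.3 CPM in vehicle cells. Its fall by 0.88 (SE 0.07, edgeR adjusted p = 5.16e-09) has a 95% interval of -1.02 to -0.74. Spint1 stood at 94.0, 85.9 and 92.1 CPM in 4OHT cells and at 149, 154 and 138 CPM in vehicle cells, a fall by 0.67 (SE 0.06, edgeR adjusted p = 1.25e-07). Spint2 stood at 117, 122 and 134 CPM in 4OHT cells and at 172, 178 and 175 CPM in vehicle cells, a fall by 0.49 (SE 0.06, edgeR adjusted p = 9.93e-06). The groups did not overlap for any of the 3 genes, and all 3 passed in DESeq2 too (highest adjusted p = 2.41e-07, for Spint2). The 95% intervals were -0.80 to -0.54 for Spint1 and -0.62 to -0.35 for Spint2, and the difference from St14 was not tested.

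**Figure D3:**
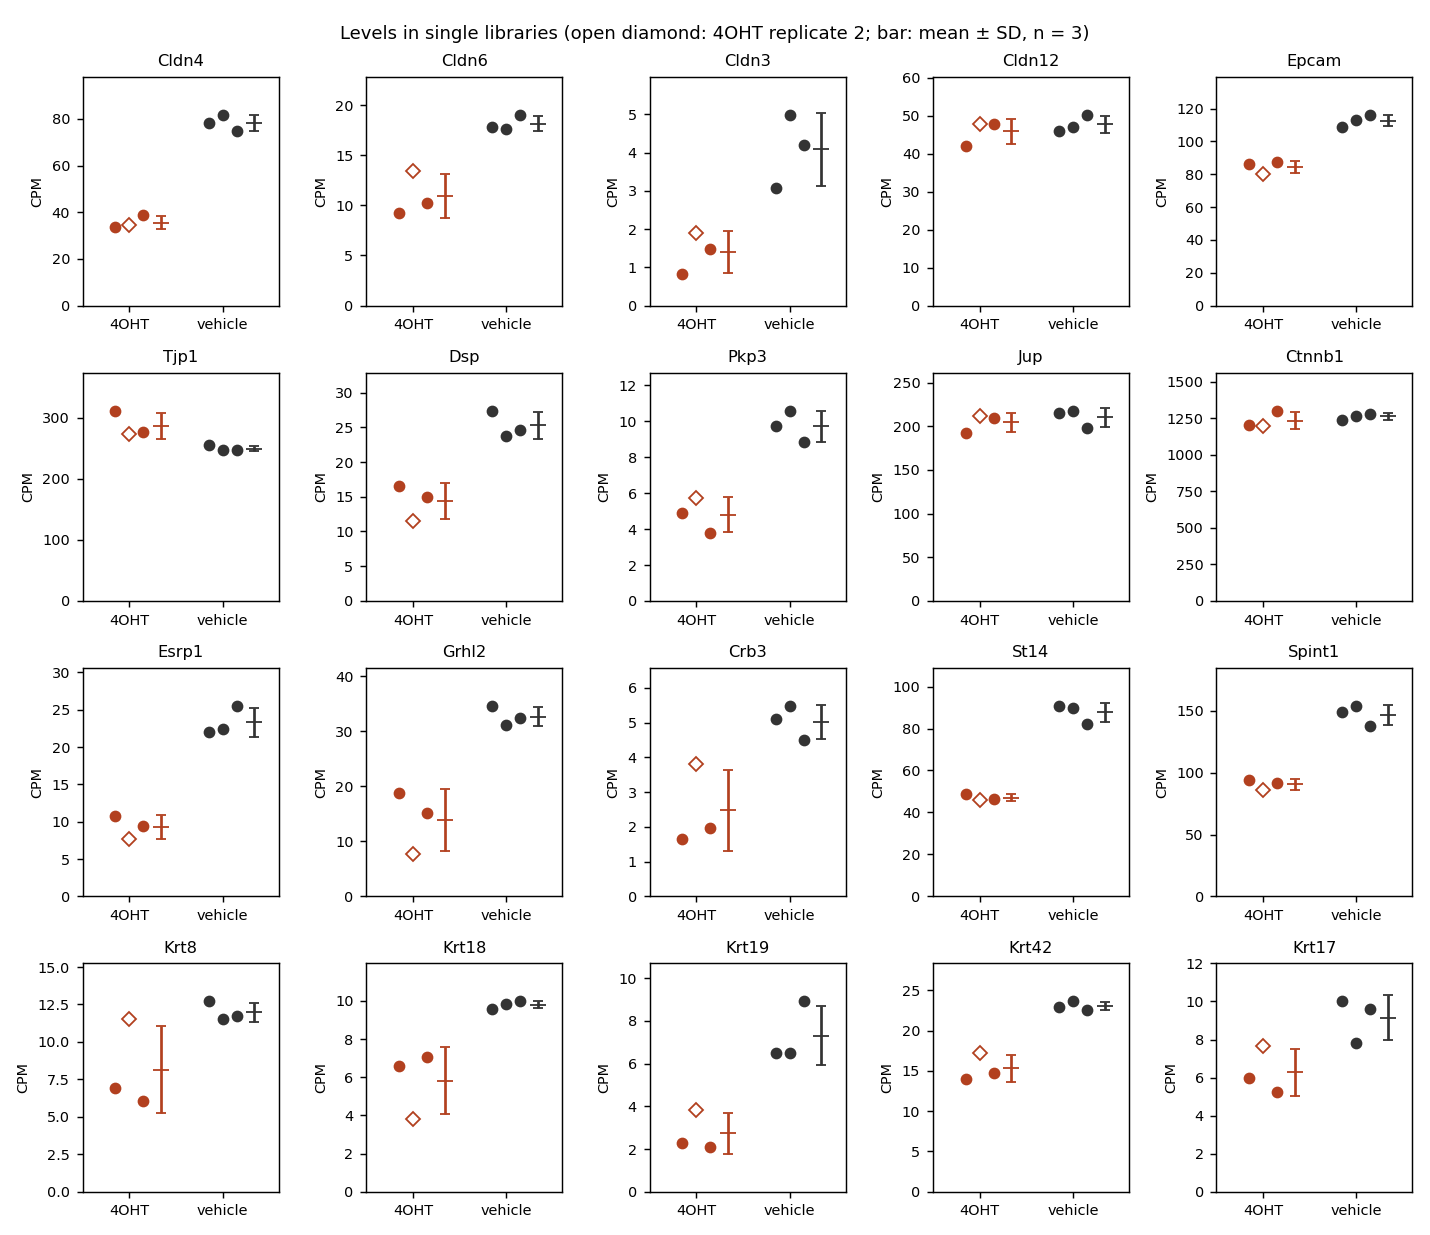
CPM (vertical axes, each from 0) in single libraries for 20 of the genes, 4OHT left and vehicle right, with the open diamond for the shallow 4OHT replicate 2 and bars for mean and SD. The claudins other than Cldn12, the regulators, the protease genes and most keratins separate the groups, Cldn12, Jup and Ctnnb1 overlap, and Tjp1 is higher in 4OHT cells.

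Of the 7 keratins 6 fell, none rose and Krt28 did not pass. Krt19, a type I keratin of simple epithelia, stood at 2.30, 3.82 and 2.09 CPM in 4OHT cells and at 6.50, 6.52 and 8.91 CPM in vehicle cells. It fell by 1.70 (SE 0.16, 95% interval -2.04 to -1.36, edgeR adjusted p = 1.36e-07) to 30.8% of vehicle, with no overlap. Krt8, the type II keratin of simple epithelia, stood at 6.94, 11.5 and 6.04 CPM in 4OHT cells and at 12.7, 11.5 and 11.7 CPM in vehicle cells. Its groups met at 11.5 CPM, the value of the shallow library, which rests on 6 reads. The log2 fold change was -0.86 (SE 0.11, edgeR adjusted p = 6.82e-06), and the adjusted p was 0.000108 without that library. A pseudogene, Krt8-ps, matches 48.1% of the Krt8 transcript at 95% identity or more. Krt18, the type I partner of Krt8, stood at 6.58, 3.82 and 7.05 CPM in 4OHT cells and at 9.60, 9.86 and 9.97 CPM in vehicle cells. It fell by 0.54 (SE 0.11, edgeR adjusted p = 0.000805) with no overlap, but DESeq2 did not pass it (adjusted p = 0.199). Per kilobase the partners stood close together, at 4.16 CPM for Krt8 and 4.05 for Krt18 in 4OHT cells and at 6.10 and 6.83 in vehicle cells.

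Krt42 and Krt17, type I keratins, fell by similar amounts. Krt42 stood at 14.0, 17.2 and 14.7 CPM in 4OHT cells and at 22.9, 23.6 and 22.6 CPM in vehicle cells (log2 fold change -0.68, SE 0.08, edgeR adjusted p = 2.95e-06). Krt17, known from skin appendages and stressed epidermis, stood at 5.99, 7.64 and 5.22 CPM in 4OHT cells and at 10, 7.82 and 9.63 CPM in vehicle cells (log2 fold change -0.71, SE 0.12, edgeR adjusted p = 0.000233). Neither overlapped between groups, and DESeq2 passed Krt42 (adjusted p = 0.000941) but not Krt17 (0.0905). The 7.64 CPM of Krt17 in the shallow library rests on 4 reads, where 1 read is worth 1.91 CPM, so its lack of overlap is narrow. Krt7, a type II keratin of simple epithelia, was near 1 CPM, with 0.530, 1.91 and 0.653 CPM in 4OHT cells and 1.19, 0.846 and 1.10 CPM in vehicle cells. Its fall by 0.88 (SE 0.26, edgeR adjusted p = 0.02) came with overlap, since the shallow library, with 1 read, gave the highest value. The call was lost without 4OHT replicate 1 (edgeR adjusted p = 0.175), without vehicle replicate 1 (0.129) and in DESeq2 (0.799). Krt28, a keratin of the hair follicle, stayed at or under 1.91 CPM in every library.

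Several of these genes lie next to each other in the RefSeq gene order. Cldn3 and Cldn4 on chromosome 5, Cldn6 and Cldn9 on chromosome 17, Krt8 and Krt18 on chromosome 15, and Krt17 and Krt42 on chromosome 11 are pairs with no protein-coding gene between them, and in these 4 pairs both genes fell. Of all tested genes of the set 57.1% fell, and a link to position was not tested. Ocln and Marveld2 on chromosome 13 are a pair of the same kind in which neither passed. Jup, which did not pass, lies 3 protein-coding genes from Krt42.

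The rest of the pathway was read from a list of other junction, desmosome, keratin, polarity and regulator genes. Of 97 such genes 63 could be tested, and 17 were lower in 4OHT cells, 13 higher and 33 did not pass, with a median log2 fold change of -0.11. As shares of those tested, 27.0% were lower and 20.6% higher, against 10.5% and 11.9% of all genes tested. Among 26 tested junction genes 6 fell (23.1%) and 8 rose (30.8%). Jam2, a junctional adhesion molecule gene, stood at 239, 210 and 232 CPM in 4OHT cells and 107, 106 and 118 CPM in vehicle cells (log2 fold change 1.08, SE 0.06, edgeR adjusted p = 1.55e-10), against the fall of its relative F11r. The gap junction gene Gja1 rose (log2 fold change 0.78, 210 ± 10.9 CPM in 4OHT and 124 ± 0.851 CPM in vehicle cells) while the gap junction gene Gjb5 fell (-0.94, 17.5 ± 3.85 and 37.2 ± 3.41 CPM). Cdh1, the E-cadherin gene, stood at 298, 328 and 282 CPM in 4OHT cells and at 355, 358 and 357 CPM in vehicle cells, a fall by 0.27 (SE 0.06, edgeR adjusted p = 0.00232) with no overlap.

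The desmosome and keratin genes outside the set added 4 falls (50%) and no rise among 8 tested. Perp, a desmosome gene, averaged 34.2 ± 7.1 CPM in 4OHT and 43.7 ± 3.54 CPM in vehicle cells (log2 fold change -0.51). Its groups overlapped through the shallow library, at 42 CPM. Ppl, the periplakin gene, averaged 3.31 ± 0.624 and 4.87 ± 0.495 CPM (-0.66, DESeq2 adjusted p = 0.329), and Plec, the plectin gene, 85.8 ± 11.8 and 123 ± 12 CPM (-0.43). Of these 24 genes 17 had a mean under 1 CPM in both groups, among them Krt5 and Krt14, the keratin pair of basal epidermis. In the polarity list 3 of 16 rose, a share of 18.8% against 11.9% of all genes tested, and none fell. Llgl2 and Llgl1, which mark the basolateral side, rose by 0.35 and 0.33 on the log2 scale (edgeR adjusted p = 0.000163 and 0.000603), and Prkci by 0.17 (edgeR adjusted p = 0.049, but 0.0729 to 0.221 without 4OHT replicate 2 or 3 or any one vehicle replicate, and 0.189 in DESeq2). Of 13 regulators 7 fell (53.8%) and 2 rose (15.4%). Elf3, an epithelial ETS factor, fell by 0.44 (edgeR adjusted p = 0.000199), with overlap through the shallow library, at 51.6 CPM. Rbm47, which encodes an RNA-binding protein, rose by 0.95 (96.5 ± 6.31 CPM in 4OHT and 48.6 ± 1.8 CPM in vehicle cells, edgeR adjusted p = 1.06e-09). Grhl1, a relative of Grhl2, stood at 5.54, 7.64 and 5.06 CPM in 4OHT cells and at 8.64, 7.92 and 7.88 CPM in vehicle cells. The fall was without overlap (log2 fold change -0.61, SE 0.11, edgeR adjusted p = 0.000508), but DESeq2 did not pass it (adjusted p = 0.197). The lack of overlap is narrow, since the 7.64 CPM is that of the shallow library and rests on 4 reads.

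**Figure D4:**
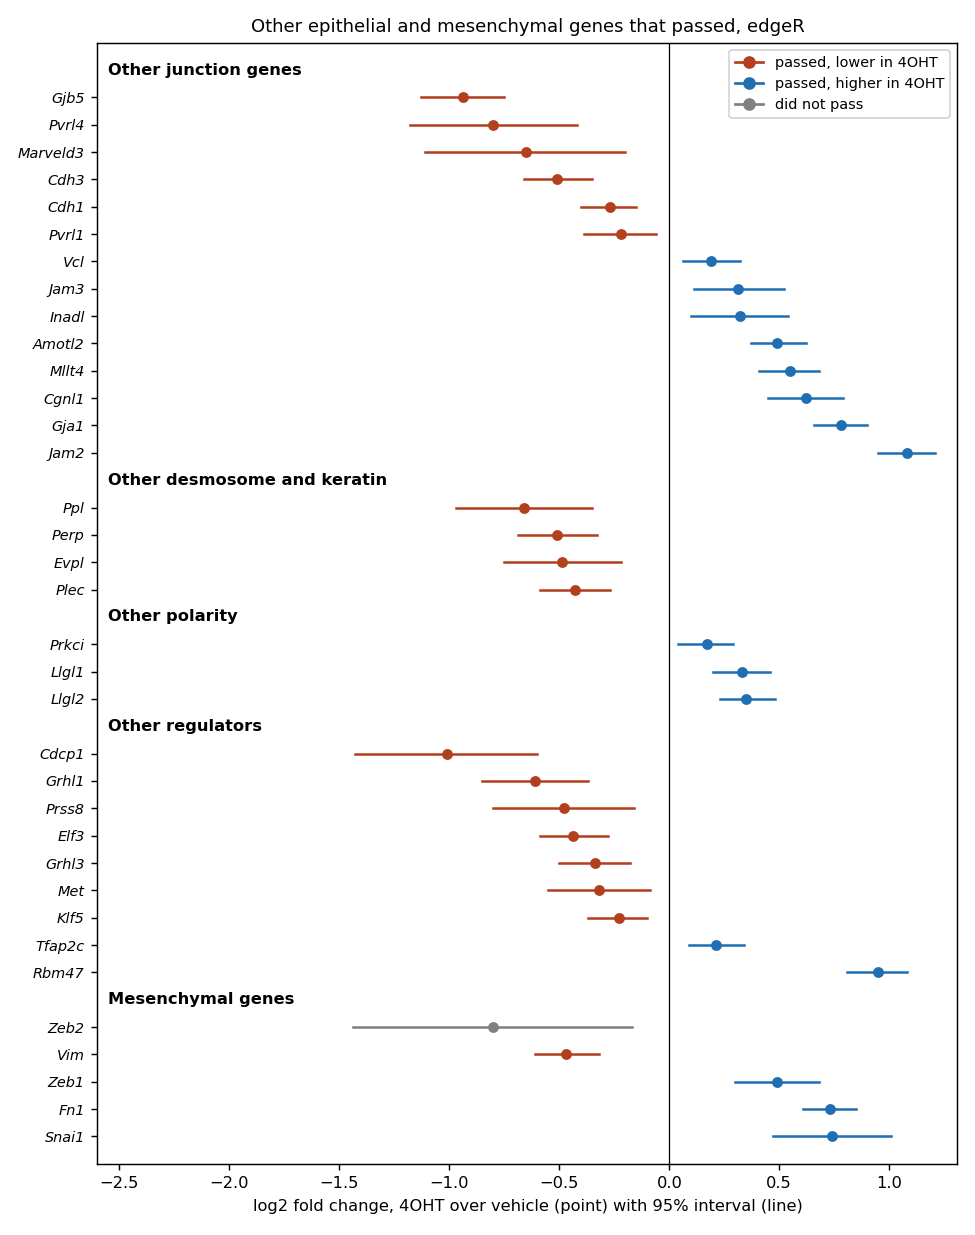
Log2 fold change of 4OHT over vehicle (horizontal axis) with 95% intervals for the other epithelial and mesenchymal genes that passed, and for Zeb2, which did not. The desmosome and keratin genes shown lie below 0 and the polarity genes above it, while junction, regulator and mesenchymal genes lie on both sides.

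Genes of the mesenchymal state, which repress or replace epithelial ones in other tissues, did not move one way. Of 9 tested, 3 rose (33.3%, against 11.9% of all genes tested), 1 fell (11.1%, against 10.5%) and 5 did not pass. Snai1, a repressor of E-cadherin, stood at 6.01, 7.64 and 7.02 CPM in 4OHT cells and at 3.80, 4.33 and 3.62 CPM in vehicle cells, a rise by 0.74 (log2, SE 0.13, edgeR adjusted p = 0.000259). Zeb1, a repressor that binds the same kind of E-box, stood at 28.3, 17.2 and 23.9 CPM in 4OHT cells and at 19.4, 19.0 and 16.9 CPM in vehicle cells, with overlap (log2 fold change 0.49, SE 0.09, edgeR adjusted p = 0.000512). DESeq2 passed neither (adjusted p = 0.11 and 0.111). Zeb2 averaged 0.322 ± 0.32 CPM in 4OHT and 0.927 ± 0.188 CPM in vehicle cells (log2 fold change -0.80, edgeR adjusted p = 0.0621, and 0.0454 with the replicate block, 0.0472 without the low-count filter and 0.01 without 4OHT replicate 1, where the log2 fold change was -1.48). Vim, the gene of the mesenchymal filament vimentin, fell by 0.47 (185 ± 22.8 CPM in 4OHT and 265 ± 8.04 CPM in vehicle cells, edgeR adjusted p = 3.5e-05). Fn1, the fibronectin gene, rose by 0.73 (2198 ± 36.4 and 1323 ± 49.4 CPM, edgeR adjusted p = 1.08e-08).

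Markers of other cell types were read beside these falls, because simple-epithelium keratins and claudins are also made by extraembryonic cells. The 12 markers of primitive and visceral endoderm summed to 178 to 211 CPM in 4OHT libraries and to 97.6 to 109 CPM in vehicle libraries. Most of each sum was Lama1, at 130 to 146 CPM in 4OHT and 89.4 to 101 CPM in vehicle libraries. Of 9 endoderm markers tested, 8 were higher in 4OHT cells (88.9%) and none lower, against 11.9% higher and 10.5% lower of all genes tested. Among the 8, DESeq2 did not pass Foxa2 (adjusted p = 0.134), while Ttr had no read in any library. Gata4 and Sox17 overlapped between groups, since neither had a read in 4OHT replicate 2. The 9 trophoblast markers summed to 11.5 to 17.5 CPM in 4OHT and 16.7 to 18.4 CPM in vehicle libraries, and Prl3d1 had no read. Of 5 tested, Gata3 and Hand1 (40%) passed as higher in 4OHT cells, but their groups overlapped and DESeq2 gave them no adjusted p. Gata3 did not pass without 4OHT replicate 1 (edgeR adjusted p = 0.066), vehicle replicate 1 (0.156) or vehicle replicate 3 (0.0622). Hand1 did not pass without 4OHT replicate 2 (edgeR adjusted p = 0.0505), 4OHT replicate 3 (0.255) or vehicle replicate 1 (0.181). For 6 markers of surface ectoderm the sums were 22.3 to 40.1 and 33.8 to 37.5 CPM. Only 2 of these could be tested, Sfn and Wnt10a, and both (100%) were lower in 4OHT cells. Sfn made up most of these sums and overlapped between groups through 4OHT replicate 2, at 36.3 CPM. Wnt10a did not pass without 4OHT replicate 1 (edgeR adjusted p = 0.121) or vehicle replicate 1 (0.0513), and DESeq2 gave it no adjusted p. The 8 fibroblast markers summed to 14.0 to 19.1 CPM in 4OHT and 24.4 to 26.1 CPM in vehicle libraries, where Thy1 fell and Postn had no read. Thy1, the only 1 of 4 tested that passed (25%), averaged 6.67 CPM in 4OHT and 15.9 CPM in vehicle cells. The 6 neuroectoderm markers summed to 80.3 to 91.6 CPM in 4OHT and 120 to 128 CPM in vehicle libraries. Of 5 tested, Tubb3 was lower (20%) and Sox1 higher (20%) in 4OHT cells, Sox1 with overlap and not in DESeq2 (adjusted p = 0.247). Most of the neuroectoderm sums was Tubb3, with means of 71.8 CPM in 4OHT and 113 CPM in vehicle cells. The 6 mesoderm markers summed to 5.48 to 6.21 CPM in 4OHT and 3.69 to 4.69 CPM in vehicle libraries. Kdr, 1 of 2 tested (50%), passed as higher, but its groups overlapped, and it did not pass without 4OHT replicate 1 (edgeR adjusted p = 0.118) or in DESeq2 (0.768). Among the endoderm markers Gata6 stood at 10.4, 11.5 and 12.1 CPM in 4OHT cells and at 0.548, 0.747 and 0.838 CPM in vehicle cells. The endoderm markers thus moved opposite to most of the epithelial genes, and the part of any of these cell types in the falls was not tested.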

How the data were processed

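Per the labels' protocols, NEBNext Ultra kits turned polyadenylated RNA of the 6 samples into libraries. Read counts per gene symbol, as whole numbers, are what was deposited. The submitters' processing notes name STAR, DESeq and mm9 without versions, while the counter, its annotation and its strand setting are named in no source used here. Totals vary widely between samples, so the values were taken as raw counts that the authors had not scaled. The quasi-likelihood test of edgeR 4.0.16 (R 4.3.3) was fitted to all 6 samples: filterByExpr (minimum count 10) left 14458 genes, TMM scaled the libraries, and p-values were adjusted over all tested genes. Levels are TMM-scaled CPM, means carry the SD over 3 samples, and fold changes use a prior count of 0.125, with SE and intervals from the same model. The model weighs libraries by depth, which the mean CPM does not. A level of 3 reads is 5.73 CPM in 4OHT replicate 2 and 0.0548 to 0.149 CPM in the others, which limits precision there for counting error alone.

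Alternatives were other scalings, no filter, DESeq2 1.42.0, a replicate block and leaving out each sample. Deviations of same-numbered samples from their group means had correlations of 0.57, 0.15 and 0.39 over 3632 genes with log2 CPM above 6. The numbers may pair the samples, but this check cannot decide it. Deviations from a mean of only 3 samples depend on each other, and 4OHT replicate 2 is shallow. No label says what the numbers mark, and 4OHT replicate 3 correlated more with vehicle replicate 2 (0.45). No 2 replicate libraries agreed within sampling noise (chi-square per degree of freedom of at least 1.25). The procedure was also run on counts simulated with the spread fitted to these same libraries, which cannot check the calls made here. Exon lengths and overlaps come from GENCODE vM21, copies from blastn 2.17.0, and promoters and gene order from RefSeq on GRCm38.p6, a build other than mm9. Of the 43 genes 42 had an exon length. The genes, lists, motifs and tests were chosen with earlier results of these data known. By the rule for named genes all 43 are accounted for, with values in every sample for those that passed and for the most abundant one of a role group where none did. Of each list of other genes, the 3 that passed with the smallest adjusted p are named, besides Cdh1, Vim, Zeb1, Zeb2 and Snai1. Further genes given with every sample were chosen after their values were seen. Of the other epithelial genes, 6 newer symbols that duplicate older ones in the list were not in the table, and 1 gene is not reported here.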

Additional observations from a re-analysis of the deposited data

How the results depend on the processing

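The counts changed by more than 1.5 times with DESeq2 and with no other alternative. DESeq2 called 977 genes against 3233 in edgeR, 16 of the 42 genes of the set against 25, and 16 against 34 of the 72 other epithelial and mesenchymal genes. It lost 8 of the 25 calls (Cldn7, Tjp1, Tjp3, Pkp2, Pkp4, Krt7, Krt17 and Krt18), gave Cldn9 no adjusted p and kept 16, and the cause was not tested. Under the RLE and upper-quartile scalings and without the low-count filter all 25 calls were kept and none was gained. With the replicate block the counts were 4073, 28 and 41, all 25 calls were kept, and Cldn25, Cgn and Ctnnd1 were gained. Among the other genes named, the block added Zeb2 and changed no other call. Zeb2 also passed without the filter and without 4OHT replicate 1, and Prkci was lost without the filter (edgeR adjusted p = 0.0547). Leaving out 1 sample gave 2304 to 3946 genes in all, 23 to 25 in the set and 26 to 39 among the other genes. In the set, 22 of the 25 calls held in each alternative but DESeq2, the exceptions being Tjp1, Pkp4 and Krt7. No call reversed in direction. Depth limits the low genes most, since 1 read in 4OHT replicate 2 is worth 1.91 CPM.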
